A study of Homo sapiens with 3 samples.

Results

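Polyamine synthesis and its antizyme circuit were examined through 8 genes, ODC1, AMD1, SRM, SMS, SAT1, OAZ1, OAZ2 and AZIN1, taken by gene symbol from a ribosome profiling (Ribo-seq) table of 63241 genes. The selection rule named them as a set under translational control by frameshifting or upstream reading frames and used no measured value, although for SRM no upstream frame was found here. All 8 passed the filter on low counts, after which 19820 genes were tested. Ribo-seq counts the mRNA fragments that ribosomes shield from nuclease, called footprints. The cells were HEK293T, an established line from human embryonic kidney in which the viral SV40 large T antigen, a binder of p53, is present. Constructs of the tumor suppressor p53 were expressed in them, either wild-type (WT) or with the substitution G245S or R273H in the DNA-binding domain. The 3 groups held 3 dishes each (9 libraries of 18.7 to 24.6 M counts), and every dish received cycloheximide for 2 min before harvest.

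The labels describe the expression in 2 ways. The cell line label calls all 3 groups stable, whereas the genotype label calls all 3 transient. The treatment label gives stable expression for WT and, for both mutants, a lipofection of a wild-type construct 24 hr before collection; the methods of the study describe stable lines made with lentivirus. Groups were therefore taken from the sample titles, and mutation, mode of expression and library pool cannot be told apart, since the dishes of a group were pooled at reverse transcription. Adjusted p-values therefore set each difference against dish-to-dish spread inside one pool. Cells lacking any p53 construct were not analysed here. In bulk libraries, fewer cells of a type and less RNA per cell cannot be told apart, and footprint counts alone do not separate mRNA abundance from translation.

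Polyamines (putrescine, spermidine and spermine) are small cations that bind RNA and are needed for growth. ODC1 (ornithine decarboxylase) makes putrescine. AMD1 (S-adenosylmethionine decarboxylase) supplies the aminopropyl groups that SRM (spermidine synthase) and SMS (spermine synthase) add in turn, and SAT1 acetylates spermidine and spermine so that they can be exported or oxidised. High polyamine levels raise a programmed +1 frameshift on the antizyme mRNAs OAZ1 and OAZ2, and antizyme then binds ODC1 and sends it to the proteasome. AZIN1 (antizyme inhibitor) resembles ODC1 without its activity and takes antizyme away from it. The short upstream reading frame of AMD1 is a textbook site of translational control by polyamines.

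The sequences of those control elements are shown because each count is 1 total for a gene and cannot say which frame a footprint came from. They were read from GRCh38 with the GENCODE 44 canonical transcripts. In the first pair, capitals mark an upstream open reading frame from its ATG to its stop codon, in exon 1 and within the 5′ leader. The AMD1 frame spans 21 nt, with 6 codons before its stop, and the SAT1 frame shown, the first of 2, spans 15 nt, with 4 codons before its stop.
AMD1, chr6:110874790-110874819, plus strand: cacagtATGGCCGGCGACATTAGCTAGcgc
SAT1, chrX:23783225-23783254, plus strand: tccttgggtcATGGTGCCAGCCTGActgag
In the antizyme pair, capitals mark the TGA stop codon of the first frame, where the ribosome must shift to read on. The annotation writes that shift as a gap between exons 2 and 3.
OAZ1, chr19:2271428-2271457, plus strand: cctcggtggtgctccTGAtgcccctcaccc
OAZ2, chr15:64691501-64691530, minus strand: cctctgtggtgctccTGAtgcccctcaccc
The windows of OAZ1 and OAZ2 were identical at 29 of 30 bases and differed by G5T, with OAZ1 as the reference and positions counted from 1 at the 5′ end.

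Upstream ATG codons were common among these genes. At least 1 was found in the leaders of 6 of the 8 (ODC1, AMD1, SMS, SAT1, OAZ2 and AZIN1). Of the 13615 protein-coding genes tested with a coding length, 41.1% have one. The selection rule named the set partly for control by upstream reading frames, so the higher share is not a result. AZIN1, on chromosome 8, held 3 upstream frames in a leader of 590 nt, the longest of the 8. SRM and OAZ1 had none, in leaders of 75 and 79 nt, against a median of 141 nt over coding genes. The ODC1 leader of 334 nt held 1 frame of 33 nt, and the SMS frame of 93 nt and the second SAT1 frame of 90 nt ran into the main coding region.

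Levels differed widely within the circuit. Per kb of coding sequence and as a mean ± SD over the 9 libraries, OAZ1 stood highest at 361 ± 8.88 CPM (counts scaled to a common library total), in the 95.8 percentile of coding genes. ODC1 followed at 143 ± 10.1 CPM per kb, AMD1 at 130 ± 15.7 and SMS at 101 ± 5.18. The lower levels were those of OAZ2 at 94.4 ± 3.63 CPM per kb, SRM at 77.7 ± 7.32, AZIN1 at 73.4 ± 2.34 and SAT1 at 21.1 ± 3.47. All were above the median coding gene, at 15.4 CPM per kb. That order held in both mutants, where only ODC1 and AMD1 in G245S dishes overlapped as neighbours, but it differed in WT. In WT dishes AZIN1 (75.3 ± 1.53 CPM per kb) lay above SRM (68.8 ± 4.08) without overlap, and OAZ2 (97.4 ± 3.74) and SMS (94.4 ± 1.91) overlapped. Over whole transcripts the order changed: SMS (65.3 CPM per kb) and SRM (56.0) then stood above AMD1 (38.2), whose 3′ region is long.

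The first question was how footprints of these genes differ between cells with mutant and WT p53. Both mutants gave the same calls: the synthesis enzymes ODC1, AMD1, SRM and SMS were higher than in WT, the catabolic enzyme SAT1 was lower, and OAZ1, OAZ2 and AZIN1 were not called. Thus 5 of 8 genes were called in G245S against WT, where 24.7% of all genes were called, and 5 of 8 in R273H against WT, where 28.8% were. In G245S 4 were higher and 1 lower, against 12.6% and 12.1% of all genes, and in R273H 4 were higher and 1 lower, against 14.2% and 14.6%. Among genes averaging 100 counts or more, which includes all 8, the shares called were 33.1% and 37.6%. The median log2 fold change of the 8 was 0.079 in G245S and 0.060 in R273H, against medians of -0.00069 and -0.0024 over all genes. Both comparisons use the same 3 WT dishes, so their agreement is not independent. Against a minimum fold of 1.2 in place of 0 change, AMD1 alone of the 8 was called in each mutant.

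**Figure D1:**
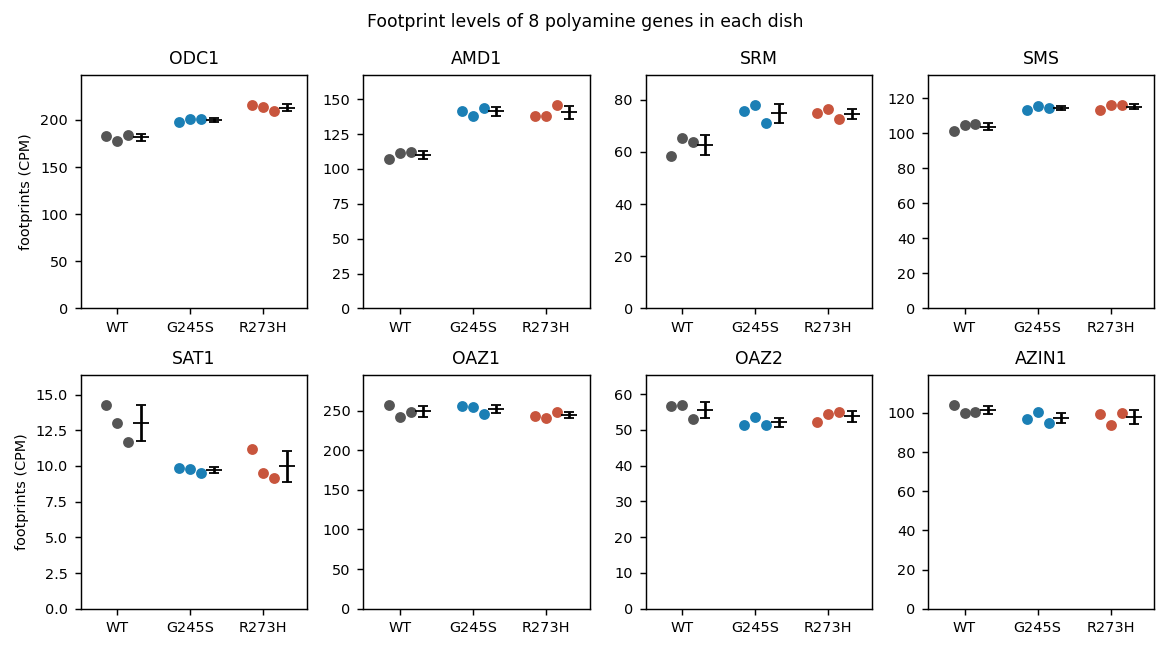
Footprint level (y axis, TMM-scaled CPM, from 0) of each gene in the 3 dishes of each group (x axis; points), with the mean ± SD of dishes beside them in black. All mutant dishes lie above all WT dishes for ODC1, AMD1, SRM and SMS and below them for SAT1, while the groups overlap for OAZ1, OAZ2 and AZIN1. The share of all genes whose dishes separate in this way was not counted.

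AMD1 (chromosome 6, 110874770 to 110898879) differed most among the synthesis enzymes. Its level was 107, 111 and 112 CPM in the WT dishes, 142, 138 and 144 in the G245S dishes and 138, 138 and 146 in the R273H dishes. No mutant dish overlapped a WT dish, and the mutants shared one range. Here and for the genes below, how often dishes separate over all genes was not counted. The log2 change against WT was 0.36 (SE 0.0333, adjusted p 1.8e-09 in edgeR's quasi-likelihood test) in G245S, a rise of 28.5%, and 0.35 (SE 0.0327, adjusted p 1.8e-09) in R273H, a rise of 27.8%. These values lay in the 91.7 and 90.2 percentiles of all genes tested.

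ODC1 (chromosome 2, 10439968 to 10448327), the first enzyme of the pathway, was read at 183, 177 and 184 CPM in WT. It stood at 198, 201 and 201 in G245S and at 216, 214 and 209 in R273H. The 3 groups were thus fully separate, with R273H highest. The log2 change against WT was 0.14 (SE 0.0279, adjusted p 0.000393 in edgeR's quasi-likelihood test) in G245S and 0.23 (SE 0.0273, adjusted p 1.7e-07) in R273H, or 10.2% and 17.4% more footprints.

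The aminopropyl transferases moved the same way. SRM (chromosome 1, 11054584 to 11060020) rose from 58.4, 65.5 and 63.8 CPM in WT to 75.5, 77.9 and 70.8 in G245S and 75.0, 76.2 and 72.5 in R273H. The lowest mutant dish was 70.8 CPM, above the highest WT dish. In edgeR's quasi-likelihood test the log2 fold change of SRM was 0.26 in both mutants (SE 0.0451, adjusted p 8.8e-05 in G245S and SE 0.0440, adjusted p 6.0e-05 in R273H). SMS (chromosome X, 21940709 to 21994837) was at 102, 105 and 106 CPM in WT, 114, 116 and 114 in G245S and 114, 116 and 116 in R273H. The shift was small but larger than the spread of dishes. On the log2 scale the change of SMS was 0.14 (SE 0.0322, adjusted p 0.00149 in edgeR's quasi-likelihood test) in G245S and 0.15 (SE 0.0315, adjusted p 0.000569) in R273H.

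SRM was the only gene of the 7 with a RefSeq promoter entry (250 bases before to 50 after the start, GRCh38.p14) that held an E-box, CACGTG, a palindromic motif bound by MYC and related factors. This hexamer is in 7.26% of 35116 such promoters. The window is shown with the E-box in capitals, 199 bases before the start.
SRM, chr1:11060200-11060229, minus strand: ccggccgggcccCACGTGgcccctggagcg
A p53 consensus decamer, a half-site, was searched on both strands too. It was found in 6.63% of all promoters and in none of the 7 windows, too few to read its absence as a result. Neither motif was searched outside these windows.

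SAT1 (chromosome X, 23783173 to 23786210) was the gene that fell. Its level was 14.2, 13.0 and 11.7 CPM in WT, 9.86, 9.76 and 9.48 in G245S and 11.2, 9.50 and 9.19 in R273H. The groups did not overlap with WT, though the lowest WT dish (11.7 CPM) and the highest R273H dish (11.2 CPM) were close. The log2 change against WT was -0.42 (SE 0.0971, adjusted p 0.00166 in edgeR's quasi-likelihood test) in G245S and -0.38 (SE 0.0936, adjusted p 0.00260) in R273H, or -25.4% and -23.2%. With 182 to 287 counts per dish, SAT1 was also the least deeply covered and had the widest standard errors. An overlapping gene on the same strand holds counts equal to 2.74% of the SAT1 mean.

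**Figure D2:**
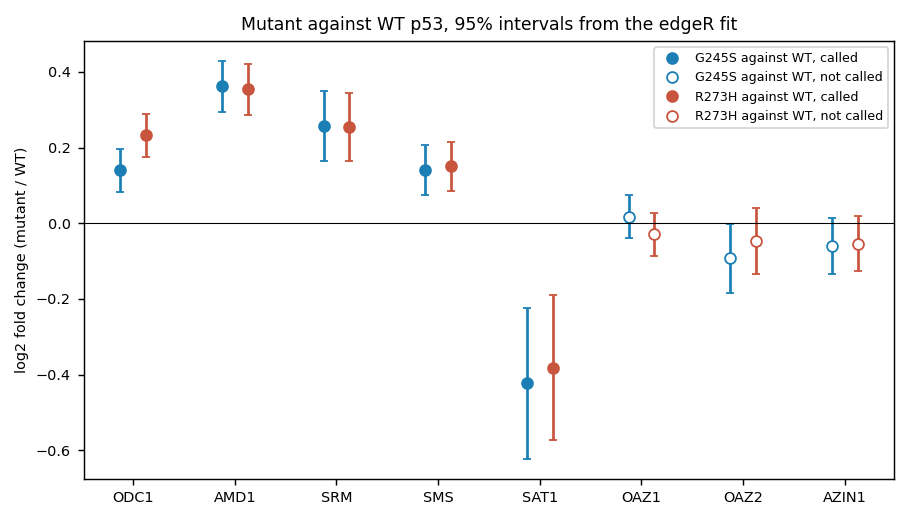
Log2 fold change of each gene (x axis) in G245S (blue) and R273H (red) against WT (y axis), with 95% intervals from the edgeR fit; filled points passed the test and open points did not. AMD1 lies highest at 0.36 and 0.35, SAT1 lowest at -0.42 and -0.38, and OAZ1 near 0.

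The antizyme side of the circuit showed no called difference in edgeR's quasi-likelihood test. OAZ1 (chromosome 19, 2269509 to 2273490) was at 257, 242 and 248 CPM in WT, 255, 255 and 246 in G245S and 243, 240 and 248 in R273H. These ranges overlapped. Its log2 fold change was 0.018 in G245S (95% interval -0.040 to 0.075) and -0.029 in R273H (-0.086 to 0.027), so a difference as large as that of SMS lies outside both intervals. An overlapping gene on the same strand holds counts equal to 7.33% of the OAZ1 mean, and estimated counts could have been split between them. With length and GC trends removed, the R273H values of OAZ1 and OAZ2 changed sign, to 0.044 and 0.024, and were not called.

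OAZ2 (chromosome 15, 64687573 to 64703281) was at 56.7, 56.8 and 53.1 CPM in WT, 51.5, 53.5 and 51.3 in G245S and 52.1, 54.4 and 54.9 in R273H. The groups overlapped by 1 dish in G245S and more widely in R273H. Its log2 fold change was -0.093 in G245S (95% interval -0.18 to -0.0023, adjusted p 0.129 in edgeR's quasi-likelihood test) and -0.046 in R273H (-0.13 to 0.041, adjusted p 0.458). AZIN1 stood at 104, 100 and 101 CPM in WT, 96.8, 100 and 94.9 in G245S and 99.5, 93.7 and 100 in R273H. Its groups overlapped too. The log2 fold changes of AZIN1 were -0.060 (95% interval -0.13 to 0.014) and -0.054 (-0.13 to 0.019).

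Ratios within a dish do not depend on how libraries are scaled, but they were not adjusted for length or GC trends. ODC1 and OAZ1 differ in coding length (1386 and 687 nt) and in GC content (46.8% and 58.8%). With those trends removed, the G245S log2 changes of ODC1 and OAZ1 were 0.15 and 0.049, beside 0.14 and 0.018 without removal. In R273H they were 0.22 and 0.044, beside 0.23 and -0.029. The ratio of ODC1 to OAZ1 counts was 0.712, 0.734 and 0.743 in the WT dishes, 0.774, 0.790 and 0.816 in G245S and 0.888, 0.890 and 0.844 in R273H. The 3 groups did not overlap, and their means were 0.729 ± 0.0160, 0.793 ± 0.0211 and 0.874 ± 0.0261 (SD, n = 3 dishes). The ratio of OAZ1 to its inhibitor AZIN1 was 2.45 ± 0.0320 in WT, 2.59 ± 0.0497 in G245S and 2.50 ± 0.0631 in R273H, and that of OAZ1 to OAZ2 was 4.48 ± 0.216, 4.84 ± 0.104 and 4.54 ± 0.126. For both, every G245S dish was above every WT dish, while R273H and WT overlapped. The ratio of SRM to SMS was 0.602 ± 0.0255, 0.652 ± 0.0282 and 0.647 ± 0.0206, with overlap between WT and each mutant.

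**Figure D3:**
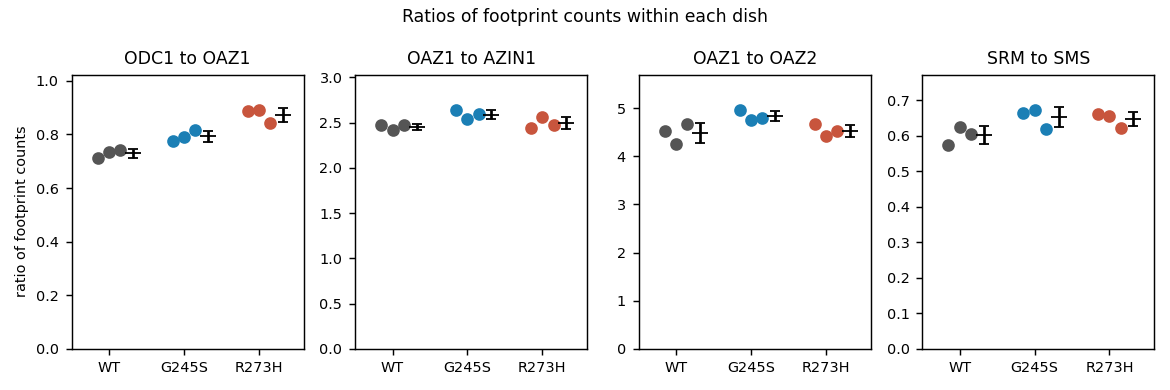
Ratio of footprint counts of paired genes (y axis, from 0) in the 3 dishes of each group (points along the x axis), with mean ± SD in black. Counts were not adjusted for length or GC trends. The ODC1 to OAZ1 ratio rises from a mean of 0.729 in WT to 0.793 in G245S and 0.874 in R273H without overlap, while each of the other 3 ratios overlaps between R273H and WT. G245S lies above WT for OAZ1 to AZIN1 and OAZ1 to OAZ2, and overlaps it for SRM to SMS.

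The mutants were then compared with each other. No gene of the 8 was called in edgeR's quasi-likelihood test, where 2.59% of all genes were. DESeq2 also called 0 of the 8. In the edgeR test 1 of them (ODC1) had an unadjusted p under 0.05, as did 3120 of all 19820 genes. ODC1 was lower in G245S than in R273H in every dish, by a log2 difference of -0.092 (95% interval -0.15 to -0.037, adjusted p 0.0648 in edgeR's quasi-likelihood test). This outcome depends on the setting. ODC1 stayed uncalled in 15 of 20 alternatives and was called in 5. Among those 5 were a filter at a mean count of 100 (adjusted p 0.0349 in the same test), the 6 mutant libraries alone (0.0457) and leaving out WT dish 3 (0.0430). It was also called without the third dish of every group (0.0146), a refit added after seeing the data. For AMD1 the difference was 0.0077 (95% interval -0.057 to 0.073), for SMS -0.0082 (-0.072 to 0.055) and for SRM 0.0019 (-0.086 to 0.090). The SAT1 difference was the least well bounded, at -0.042 (95% interval -0.24 to 0.16).

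Across the 9 libraries the called genes varied together, as a description that includes the group differences above. On log2 CPM, Pearson's r was 0.97 for AMD1 with SMS, 0.94 for SRM with SMS and 0.89 for AMD1 with SRM. SAT1 ran against them, with r = -0.95 to SMS, -0.93 to AMD1 and -0.75 to ODC1. Among 4562 genes averaging 1000 counts or more, those whose pattern was nearest to SAT1, the gene with the largest change, were BRD2 (r = 0.98), GPKOW, CYREN, WBP11 and C4orf3 (each r = 0.95). BRD2, a bromodomain protein that binds acetylated histones, was at 393 CPM in WT, 375 in G245S and 373 in R273H.

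The wider pathway was called about as often as genes in general (24.7% of all genes in G245S and 28.8% in R273H). Of 18 further genes of polyamine precursor supply, transport, catabolism and use, with the antizyme and inhibitor paralogs OAZ3 and AZIN2, 16 could be tested. In G245S 2 rose, 1 fell and 13 were not called, and in R273H 2 rose, 2 fell and 12 were not called. The list medians were 0.021 and 0.032 on the log2 scale. SLC3A2, the heavy chain of amino acid exchangers that has also been linked to polyamine export, rose from 242, 242 and 238 CPM in WT to 312, 300 and 293 in G245S and 283, 286 and 287 in R273H. On the log2 scale it rose by 0.33 (SE 0.0269, adjusted p 1.9e-10 in edgeR's quasi-likelihood test) and 0.25 (SE 0.0267, adjusted p 3.9e-08). The other riser was ATP13A3, a polyamine transporter, at 0.18 and 0.19.

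SAT2, a relative of SAT1, fell from 41.4, 40.3 and 37.7 CPM in WT to 35.4, 33.5 and 31.4 in G245S and 33.1, 32.9 and 33.3 in R273H. All mutant dishes were below all WT dishes. The log2 fold change of SAT2 was -0.25 (adjusted p 0.000785 in edgeR's quasi-likelihood test) and -0.27 (adjusted p 0.000275). PAOX, which oxidises acetylated polyamines, was called in R273H (-0.72, SE 0.257, adjusted p 0.0347 in edgeR's quasi-likelihood test) on 24 to 48 counts per WT dish and 24 to 30 per R273H dish, and those dishes overlapped. EIF5A, the translation factor that carries hypusine made from spermidine, was not called, at 1006 CPM in WT, 1023 in G245S and 1027 in R273H. ARG1 had no counts, and ATP13A4 had at most 3 in a dish.

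Genes of S-adenosylmethionine supply and methionine salvage were read as a second list. They supply AMD1 and return the methylthioadenosine that SRM and SMS make. Of 10 genes 9 were tested, and in each mutant 1 rose (MAT2A), 3 fell (ADI1, AHCY and MAT2B) and 5 were not called, with list medians of 0.0056 in G245S and -0.046 in R273H. Of all genes, 12.6% were higher and 12.1% lower in G245S, and 14.2% and 14.6% in R273H. MAT1A, the liver form of the synthetase, was not tested, at 1 to 10 counts. ADI1, a late enzyme of methionine salvage, stood at 105 ± 2.60 CPM (SD, n = 3 dishes) in WT and fell to 82.8 ± 2.68 in G245S and 81.6 ± 1.90 in R273H. Its log2 fold changes were -0.34 and -0.36. AHCY, which hydrolyses S-adenosylhomocysteine, fell from 387 ± 6.31 CPM to 353 ± 4.48 CPM and 335 ± 5.05 CPM. MAT2A, the catalytic subunit that makes S-adenosylmethionine, rose by only 0.11 and 0.069 on the log2 scale. No gene of either list was called between the mutants in edgeR's quasi-likelihood test or in DESeq2. In the edgeR test 2 of each list (16 and 9 genes tested) had an unadjusted p under 0.05, as did 3120 of all 19820 genes.

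**Figure D4:**
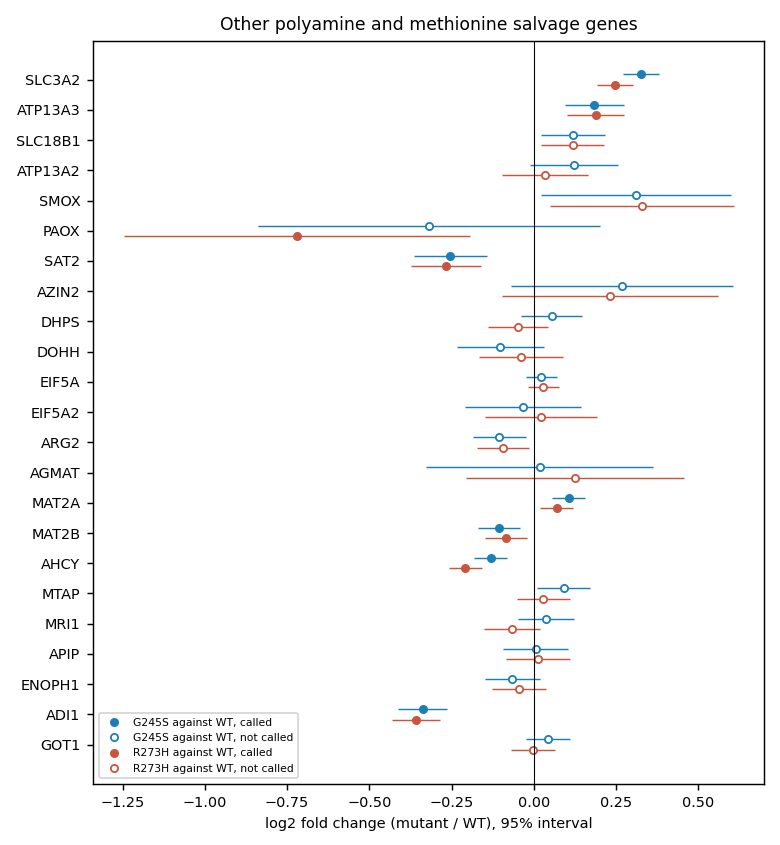
Log2 fold change (x axis, with 95% interval) in G245S (blue) and R273H (red) against WT for genes of the polyamine and methionine lists. Polyamine genes run from SLC3A2 to AGMAT and methionine genes from MAT2A to GOT1. Filled points passed the test. SATL1 (-0.71 and -0.95) and OAZ3 (-0.037 and 0.42) were tested and not called but are not drawn. Among filled points SLC3A2 (0.33 and 0.25) lies furthest right. To the left are SAT2 (-0.25 and -0.27), ADI1 (-0.34 and -0.36) and PAOX (-0.32 and -0.72, called in R273H alone).

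Some properties of the libraries moved with the groups. MDM2, which WT p53 activates, was at 860 CPM in WT and at 76.8 and 76.7 in G245S and R273H, and CDKN1A, another such target, was at 61.1, 16.1 and 13.9 CPM. The rank correlation of a library's deviations with coding length was -0.18 to -0.14 in WT, -0.011 to 0.12 in G245S and 0.14 to 0.19 in R273H. With GC content it was lowest in dish 3 of each group, at -0.18 in WT, -0.18 in G245S and -0.42 in R273H. With length and GC trends removed the same 5 genes were called. Their log2 changes ran from 0.38 for AMD1 to -0.36 for SAT1 in G245S and from 0.34 to -0.33 in R273H. In G245S 5422 genes were then called in all, beside 4900 without removal. The proliferation marker MKI67 was at means of 230 CPM in WT, 240 in G245S and 214 in R273H and was called lower in R273H than in WT (log2 change -0.10, adjusted p 0.00717 in edgeR's quasi-likelihood test) and higher in G245S than in R273H (0.16, adjusted p 0.00160). Its part in the results was not tested. Of the epithelial markers, KRT18, CDH1 and EPCAM were read in every dish and not called, and KRT19 had 0 to 1 count. KRT8 was at 33.9 ± 1.25 CPM in WT, 35.3 ± 0.689 in G245S and 43.4 ± 1.07 in R273H (SD, n = 3 dishes), and was called higher in R273H than in WT (0.36 on the log2 scale, adjusted p 1.3e-06 in edgeR's quasi-likelihood test) and than in G245S (adjusted p 0.000527). Of the kidney markers, PAX8 had 0 to 2 counts, and PAX2 was at 5.43 CPM in WT, 6.84 in G245S and 6.92 in R273H, called in R273H alone (0.35, adjusted p 0.0359 in edgeR's quasi-likelihood test). PTPRC, PECAM1, HBB and COL1A2, markers of blood, endothelium and fibroblasts, had 0 to 3 counts. COL1A1 was at 32.5 CPM in WT, 28.2 in G245S and 27.5 in R273H, called lower in both mutants (-0.21 and -0.24, adjusted p 0.0178 and 0.00448 in edgeR's quasi-likelihood test). The part of these markers in the results was not tested.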

How the data were processed

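The authors removed adapters with Trim Galore and rRNA reads with SortMeRNA, handled molecular identifiers with UMI-tools where applicable, and aligned reads to GRCh38 with STAR. The deposited table holds expected counts (estimated footprints per gene, not scaled). The counting tool, annotation release, strand setting and whether whole transcripts were counted are not given in the sources used here. In each library 61.5% to 63.7% of nonzero values were not whole, so shared reads were split by estimate. Pseudogenes of AMD1, SRM, SMS and OAZ1 each held at most 0.242% of the gene's mean count. Of the 63241 identifiers 99.09% matched GENCODE 44.

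Counts were rounded and tested with edgeR 4.0.16 (R 4.3.3; TMM, filterByExpr, robust glmQLFit, two-sided glmQLFTest) in one fit of 9 libraries with group as the only term (6 residual degrees of freedom). The threshold for a call was 0.05 on p-values adjusted by Benjamini-Hochberg across 19820 genes. CPM were TMM-scaled, TMM factors were 0.987 to 1.01, and the biological coefficient of variation was 2.58%. Dishes were the replicates. The 8 genes were given by the selection rule, and the polyamine and methionine lists were written with earlier results of these data known. Beyond the 8 genes, those named are list genes called in a mutant with a log2 change of at least 0.2, listed genes that were not tested, the 5 genes nearest to the member that changed most, and MDM2 and CDKN1A. ATP13A3, EIF5A, MAT2A, MAT2B and the marker genes were named in addition, with their values seen. Alternatives were RLE and upper-quartile scaling, other count filters, DESeq2 1.42.0, a replicate block, removal of length and GC trends, a minimum fold of 1.2, whole-transcript length and leaving out dishes.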

Additional observations from a re-analysis of the deposited data

How the results depend on the processing

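Each planned refit gave 1 result for each of the 8 genes. Against WT, direction and call held in 147 of 152 such results in G245S and in 146 of 152 in R273H. In each mutant 4 of the changes were calls lost against a minimum fold of 1.2. A test against a minimum fold of 1.2 kept only AMD1 of the 8 in each mutant (1 gene; adjusted p 0.0277 and 0.0340), with 547 and 693 genes called in all and 3 between the mutants, 0 genes of the polyamine list in either mutant, and 0 and 1 of the methionine list in G245S and R273H. DESeq2 called 3079 and 3573 genes in all, and the same number of the 8 as edgeR. Leaving out any 1 dish left 5 of 8 called in each mutant; the methionine list then gave 2 to 4 calls in R273H. OAZ1, not called, changed sign in R273H with length and GC trends removed (0.044), as did OAZ2 (0.024), and OAZ1 in G245S without WT dish 2 (leave-one-out range -0.0026 to 0.041). Trend removal also called 5 genes of the polyamine list in G245S, of 5422 called in all, beside 3 of 4900 in the main fit. Upper-quartile scaling split the calls into 2793 higher and 2182 lower in G245S and 3144 and 2601 in R273H. Same-numbered dishes of different groups deviated together weakly, with r of 0.042 to 0.23 over 9 pairs. Between different numbers r was -0.18 to 0.058, and 8 of 9 libraries correlated best with their own number. Since the lowest same-number r was 0.042, the number was not taken as a pairing. With the replicate block, 1262 genes were called between the mutants. They held 1 of the 8 (ODC1, adjusted p 0.00988 in edgeR's quasi-likelihood test) and 1 of each list. That block also called 5 of the polyamine list in G245S against WT, of 5779 genes called in all. Between the mutants, 1 of the 8 was likewise called (ODC1) in genes averaging 100 counts or more and with only the 6 libraries compared, and leaving out 1 dish gave 162 to 712 genes in all, the lowest without G245S dish 1, 0 to 1 of the 8 and 0 to 1 of the polyamine list. Without the third dish of every group, added after seeing the data, 1026 genes were called, with 1 of the 8 (ODC1, adjusted p 0.0146), 1 of the polyamine list and 2 of the methionine list. Differences near 0 changed sign between the mutants: SRM with RLE (-0.0014), upper-quartile scaling (-0.0014), no filter (-0.0049), a mean count of at least 100 (-0.0016) and trend removal (-0.051), SMS (0.015) and AZIN1 (0.044) with trend removal, and SMS (0.0017) and AZIN1 (0.031) without the third dishes. With 1 dish left out the ranges were -0.029 to 0.043 for SRM, -0.0058 to 0.035 for AMD1, -0.095 to 0.053 for SAT1 and -0.036 to 0.015 for AZIN1. Causes of these changes were not tested. Levels per kb of whole transcript were 216 CPM for OAZ1, 80.0 for ODC1, 27.8 for OAZ2, 23.6 for AZIN1 and 10.4 for SAT1, beside 65.3 for SMS, 56.0 for SRM and 38.2 for AMD1. Depth limits SAT1 most.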
